A study of Rattus norvegicus with 18 samples.

Results

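The genes of integrin subunits and laminin chains were followed in poly(A) RNA from rat dorsal root ganglia (DRG). Members were the rows of the count table whose RefSeq symbol begins with *Itga*, *Itgb*, *Lama*, *Lamb* or *Lamc* followed by a number or 1 letter, which gave 25 of 15075 rows, 18 integrin subunits and 7 laminin chains. The names *Itgb3bp*, *Itgbl1*, *Itgb1bp1* and *Itgb1bp2* belong to other proteins and were left out of the members. *Itgb1bp1* and *Itgb1bp2* were counted among the adhesion complex genes below. A gene entered the tests if 6 or more of the 18 rats had over 10 reads of it, which 23 members and 11821 genes in all did. *Itgad*, a leukocyte subunit, had more than 10 reads in 3 rats and *Lamb3*, a laminin chain of epithelia, in 0 rats, with 121 and 45 reads over all rats, and neither was tested. *Itgb7* passed with exactly 6 rats.

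The study asked how DRG gene expression changes after bilateral pyramidotomy (bPYX), a cut of the corticospinal tract on both sides, and after forelimb gene therapy with neurotrophin-3. All animals were adult Lister hooded rats, and ganglia C6-C8 were taken 10 weeks after injury, with those of the treated side of a rat pooled into 1 library. The 6 naïve rats were unoperated, the 6 bPYX+GFP rats had both tracts cut and received AAV1-CMV-EGFP in forelimb flexor muscles, and the 6 bPYX+NT3 rats had the same injury and received AAV1-CMV-NT3, which carries human neurotrophin-3. A naïve rat therefore differs from both other groups in injury, in vector and in surgery at once, and these cannot be told apart. The CMV promoter of the vectors is active in many cell types.

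Laminins are trimers of an α, a β and a γ chain that assemble into the sheet of the basement membrane. Integrins are receptors made of an α and a β subunit that hold cells to laminin, collagen, fibronectin or other cells, and pass signals from the matrix to the cytoskeleton. In the DRG, Schwann cells and satellite glia wrap axons and neuron bodies and rest on a basement membrane rich in laminin. Laminin receptors on sensory neurons are known for their part in axon growth.

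The reads counted on genes ranged from 10057787 to 16002410 per rat. Values are given as normalized counts, in which each rat's counts were brought to 1 common library size with edgeR's TMM factors. Transcript lengths were not used, so levels are compared between rats and not between genes. A gene was called where edgeR's quasi-likelihood test gave an unadjusted p under 0.05, the threshold the study worked with. Once p-values were adjusted over the 11821 genes (Benjamini-Hochberg), edgeR's test called 0 genes in each of the 3 comparisons, so the calls below are unadjusted. In bPYX+GFP against naïve rats edgeR's likelihood ratio test called 11 genes after adjustment and DESeq2 16, with 0 members among them. Markers of sensory neurons, Schwann cells and satellite glia had reads in every rat, with 10 neuron markers summing to between 140200 and 183600 normalized counts. In such bulk tissue fewer cells of a type and less RNA per cell cannot be told apart.

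Against naïve rats, 3 of 23 members were called in bPYX+GFP rats, all of them lower, namely *Itga6*, *Lamc1* and *Itgb3*. In the same comparison 3.32% of all genes tested were called, 2.59% as lower and 0.728% as higher. In bPYX+NT3 rats 4 of 23 members were called against naïve rats, with *Itga6* and *Lamc1* lower and *Itga10* and *Lama5* higher, beside 6.05% of all genes, 2.94% as lower and 3.1% as higher. Between bPYX+NT3 and bPYX+GFP rats 0 of 23 members were called, beside 1.81% of all genes, 0.677% as lower and 1.13% as higher. In that comparison 0 members, and 0.0592% of all genes, had ranges that did not overlap. The median log2 fold change over the 23 members was -0.041, 0.030 and 0.098 in these comparisons, and over all genes tested it was 0.0097, 0.0022 and 0.0053. The first and the second comparison share the 6 naïve rats.

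**Figure D1:**
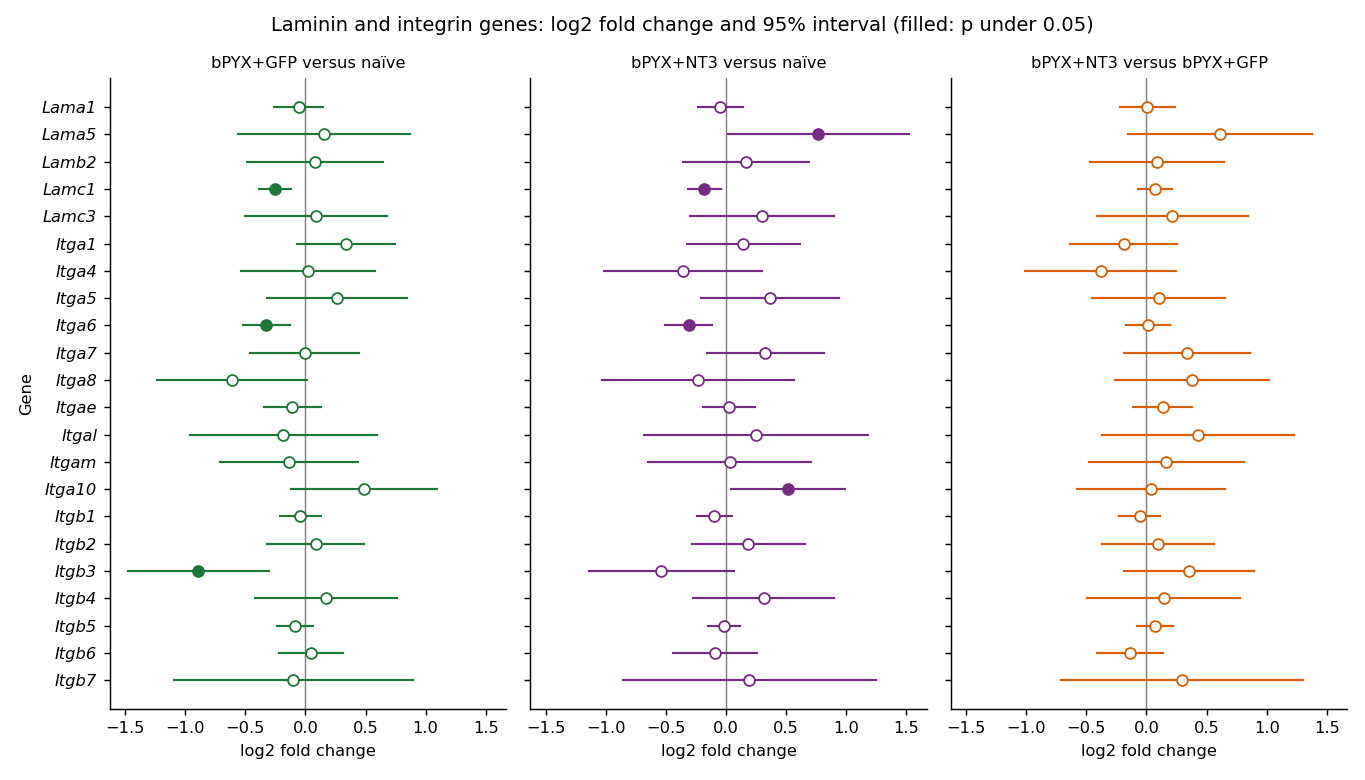
Log2 fold change (x axis) of 22 tested laminin and integrin genes (y axis) in the 3 comparisons. Lines are 95% intervals derived from the edgeR test, and filled points had an unadjusted p under 0.05. *Itga6* and *Lamc1* lie below 0 with narrow intervals against naïve rats in both injured groups, and no point is filled between the injured groups.

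Among the laminin chains, *Lamc1*, the γ chain found in most laminins of nerve, was lower in both injured groups. Its normalized counts were 3808, 4262 and 4728 in naïve rats (lowest, median and highest), 3350, 3453 and 3970 in bPYX+GFP rats and 3444, 3763 and 4216 in bPYX+NT3 rats. The ranges overlapped, but every rat of both injured groups had less than the naïve median. In bPYX+GFP rats the fit put the log2 fold change at -0.25 (SE 0.064, unadjusted p = 0.00137, edgeR adjusted p = 0.703) and the two-sided exact permutation test gave p = 0.00649. In bPYX+NT3 rats it was -0.18 (SE 0.063, unadjusted p = 0.0130, edgeR adjusted p = 0.605, exact permutation p = 0.0195). Both calls held in all 12 fits that left out 1 rat, with log2 fold changes from -0.28 to -0.22 and from -0.21 to -0.15.

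*Lama5*, an α chain of laminins in vessels and other mature basement membranes, had the largest estimate among the laminins in bPYX+NT3 rats. Its normalized counts were 27.2, 49.5 and 93.9 in naïve rats, 35.9, 55.3 and 123 in bPYX+GFP rats and 45.3, 88.7 and 167 in bPYX+NT3 rats. The groups overlapped widely, with rats 11, 2 and 17 high among the bPYX+NT3 rats. The log2 fold change in bPYX+NT3 against naïve rats was 0.77 (SE 0.35, unadjusted p = 0.0465, edgeR adjusted p = 0.605), and the exact permutation p was 0.0974. The call was lost when rat 2, 11, 17, 43, 44, 45 or 49 was left out, with a log2 fold change of 0.54 without rat 11. Against bPYX+GFP rats the estimate of 0.61 (SE 0.36, unadjusted p = 0.109) was called without rat 57 (0.94) and without rat 39 (0.76).

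The laminin chains *Lama1*, *Lamb2* and *Lamc3* were not called. *Lama1*, an α chain of early basement membranes, had intervals of the log2 fold change from -0.26 to 0.15 in bPYX+GFP and from -0.24 to 0.14 in bPYX+NT3 rats against naïve rats. For *Lamb2*, a β chain of synapses and nerve, they ran from -0.48 to 0.64 and from -0.36 to 0.69. *Lamc3*, another γ chain, had intervals from -0.50 to 0.68 and from -0.30 to 0.90. The intervals of *Lamb2* and *Lamc3* leave room for changes in either direction larger than that of *Lamc1*.

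The promoter windows of *Lamc1*, *Lama5* and *Itga10* are shown because these genes were called and had an entry in the RefSeq promoter table, build GRCr8. *Itga6* and *Itgb3* had none, and 16 of the 25 members had one. Each sequence is the 250 bases before the start, 5′ to 3′ on the strand of the gene, with the GC box GGGCGG or its reverse complement CCGCCC in capitals. The counts were made on Rnor_6.0, another build, and these coordinates belong to GRCr8 alone. *Lamc1* lies at chr13:68051987-68052236, minus strand, *Lama5* at chr3:187695975-187696224, minus strand and *Itga10* at chr2:186871461-186871710, plus strand.
Lamc1: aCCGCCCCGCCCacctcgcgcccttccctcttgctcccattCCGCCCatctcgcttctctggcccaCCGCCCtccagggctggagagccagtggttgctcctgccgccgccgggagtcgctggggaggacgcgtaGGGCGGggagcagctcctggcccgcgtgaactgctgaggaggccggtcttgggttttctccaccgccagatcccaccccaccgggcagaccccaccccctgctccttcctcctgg
Lama5: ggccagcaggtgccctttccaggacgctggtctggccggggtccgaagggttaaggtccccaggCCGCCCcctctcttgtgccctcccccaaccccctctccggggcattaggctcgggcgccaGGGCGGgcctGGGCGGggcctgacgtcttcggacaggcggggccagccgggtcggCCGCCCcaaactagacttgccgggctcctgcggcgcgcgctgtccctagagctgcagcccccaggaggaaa
Itga10: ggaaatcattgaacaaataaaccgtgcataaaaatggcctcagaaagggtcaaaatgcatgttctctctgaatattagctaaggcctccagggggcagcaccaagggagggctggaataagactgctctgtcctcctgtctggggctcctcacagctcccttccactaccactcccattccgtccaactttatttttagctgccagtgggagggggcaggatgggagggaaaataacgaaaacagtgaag
The *Lamc1* window held 5 GC boxes, overlaps counted, and 71.2% G or C, the *Lama5* window 4 and 72.8%, and the *Itga10* window 0 and 49.6%. Of 27455 rat promoter windows of this length, 32.4% held a GC box on either strand, and 6 of the 16 member windows did. The TATA box TATAAA, searched on both strands, was in 0 of these 3 windows, in 1 of the 16 and in 13.1% of all. A match is a run of letters and was not tested as a binding site.

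Of the laminin receptors, *Itga6*, the α6 subunit that pairs with β1 or β4, was lower in both injured groups, and of the 23 tested members it alone had groups whose ranges did not overlap. Its normalized counts were 5636, 5764 and 7579 in naïve rats, 4190, 4847 and 5639 in bPYX+GFP rats and 3988, 5060 and 5597 in bPYX+NT3 rats. All bPYX+NT3 rats lay below all naïve rats, and the bPYX+GFP range met the naïve range only in rat 52, at 5639 beside 5636 in naïve rat 41. Of all genes tested, 0.271% had ranges that did not overlap between bPYX+NT3 and naïve rats. In bPYX+GFP rats the log2 fold change came to -0.33 (SE 0.091, unadjusted p = 0.00303, edgeR adjusted p = 0.802, exact permutation p = 0.00433). In bPYX+NT3 rats it was -0.31 (SE 0.092, unadjusted p = 0.00468, edgeR adjusted p = 0.605), and the exact permutation p of 0.00216 is the smallest that 6 rats against 6 can give. Both calls held in all 12 fits without 1 rat, with log2 fold changes from -0.36 to -0.26 and from -0.35 to -0.24. Between the injured groups the log2 fold change was 0.012, with an interval from -0.17 to 0.19.

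The subunits that pair with α6, and α7, another laminin-binding α subunit, were not called. *Itgb1*, the β subunit shared by most matrix receptors, had 13890, 15720 and 17110 normalized counts in naïve rats, 12040, 15990 and 16930 in bPYX+GFP rats and 12900, 14920 and 15820 in bPYX+NT3 rats. The groups overlapped, and the intervals of its log2 fold change against naïve rats, from -0.22 to 0.13 and from -0.24 to 0.05, did not reach the estimates of *Itga6*. The spread of *Itgb4*, which pairs with α6 alone, was wide, with 1057, 1611 and 2736 in naïve rats, 1193, 1704 and 3773 in bPYX+GFP rats and 1159, 1941 and 3589 in bPYX+NT3 rats. The groups overlapped, with log2 fold changes against naïve rats of 0.17 (SE 0.27) with GFP and 0.31 (SE 0.27) with NT3. *Itga7*, a laminin-binding α subunit of muscle, nerve and vessel walls, had 958.5, 1427 and 1788 in naïve rats, 1059, 1199 and 2320 in bPYX+GFP rats and 1160, 1634 and 2889 in bPYX+NT3 rats. Its groups overlapped too, with log2 fold changes of -0.01 (SE 0.21) and 0.33 (SE 0.23) against naïve rats.

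**Figure D2:**
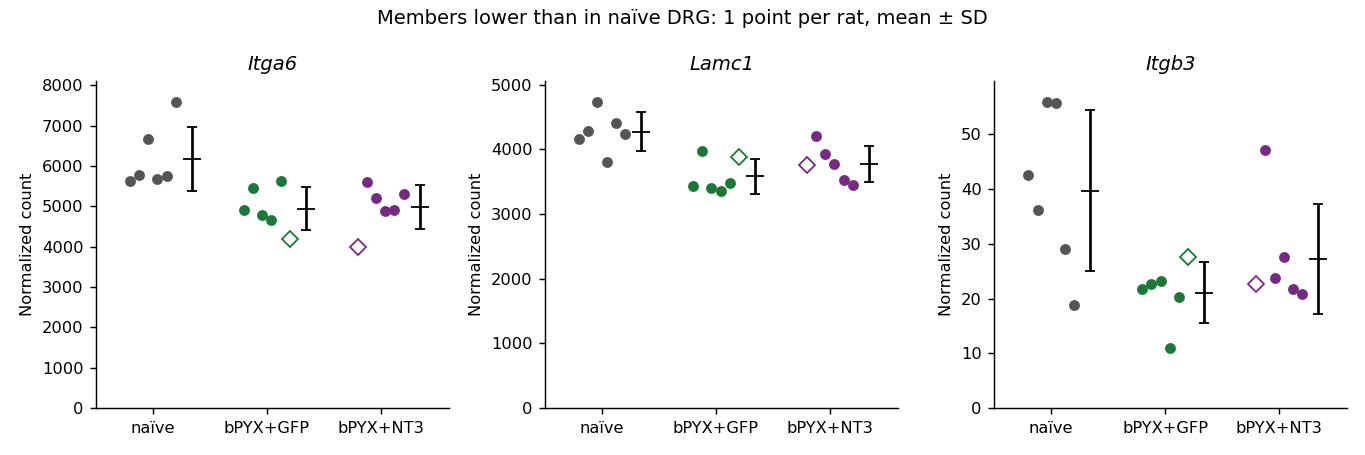
Normalized counts (y axis) of *Itga6*, *Lamc1* and *Itgb3* by group (x axis), with 1 point per rat, open diamonds for rats 57 and 11, and the mean ± SD of 6 rats at the side. For *Itga6* the bPYX+NT3 points lie below all naïve points, while *Itgb3* in naïve rats spans 18.8 to 55.9.

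*Itgb3*, the β subunit of the vitronectin receptor and of the fibrinogen receptor of platelets, was lower in bPYX+GFP than in naïve rats. It had few reads, with 18.8, 39.4 and 55.9 normalized counts in naïve rats, 10.9, 22.1 and 27.7 in bPYX+GFP rats and 20.8, 23.3 and 47.2 in bPYX+NT3 rats. All bPYX+GFP rats were under the median of the naïve rats, while naïve rat 49, at 18.8, lay within the bPYX+GFP range. The log2 fold change came to -0.89 (SE 0.27, unadjusted p = 0.00565, edgeR adjusted p = 0.828, exact permutation p = 0.0217) and was called in all 12 fits without 1 rat. In bPYX+NT3 rats it was -0.54 (SE 0.28, unadjusted p = 0.0754), with rat 17 far above the others, and it was called at -0.76 when that rat was left out. Between the injured groups the log2 fold change was 0.35, with an interval from -0.19 to 0.89, so the 2 groups were not shown to differ.

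Of the other subunits that bind fibronectin and related ligands, none was called. *Itgb5*, a partner of the αv subunit, had the narrowest spread of the tested members, with a mean coefficient of variation within groups of 7.31% and 918 ± 72.5 normalized counts in naïve rats (SD, n = 6). Its intervals ran from -0.24 to 0.07 in bPYX+GFP and from -0.15 to 0.12 in bPYX+NT3 rats against naïve rats. *Itgb6*, an epithelial partner of αv, had intervals from -0.22 to 0.31 and from -0.44 to 0.26. *Itga5*, the α subunit of the fibronectin receptor, had estimates of 0.26 (SE 0.27) and 0.37 (SE 0.27). *Itga8*, an α subunit of smooth muscle and other contractile cells, had an estimate of -0.61 in bPYX+GFP rats (SE 0.29, unadjusted p = 0.0552), which was -0.22 when naïve rat 42 was left out and was called, at -0.74 to -0.70, when rat 18, 41, 43 or 45 was left out. The row NM_001108726, listed as *Itgb8* in the study's supplement, had no symbol in the RefSeq table and so was not a member. It was not called, at -0.25 (SE 0.14, unadjusted p = 0.107) in bPYX+GFP and -0.28 (SE 0.16, unadjusted p = 0.0998) in bPYX+NT3 against naïve rats.

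Among collagen receptors, *Itga10*, an α subunit of cartilage and connective tissue, was called as higher in bPYX+NT3 than in naïve rats. It had 13.3, 21.1 and 23.8 normalized counts in naïve rats, 12.7, 26.8 and 40.1 in bPYX+GFP rats and 17.7, 26.8 and 39.2 in bPYX+NT3 rats. The ranges overlapped, and 5 of 6 bPYX+NT3 rats lay above the naïve median. The estimate was 0.52 (SE 0.22, unadjusted p = 0.0344, edgeR adjusted p = 0.605) with an exact permutation p of 0.0563, and the call was lost without rat 11, 23, 43 or 49, at 0.39 without rat 11. In bPYX+GFP rats the estimate was 0.48 (SE 0.28, unadjusted p = 0.109), and between the injured groups it was 0.037 (SE 0.29). *Itga1*, the more broadly expressed collagen receptor of vessels and fibroblasts, had an estimate of 0.33 in bPYX+GFP rats (SE 0.19, unadjusted p = 0.101) and was called there without rat 42 (0.51) or rat 57 (0.42).

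**Figure D3:**
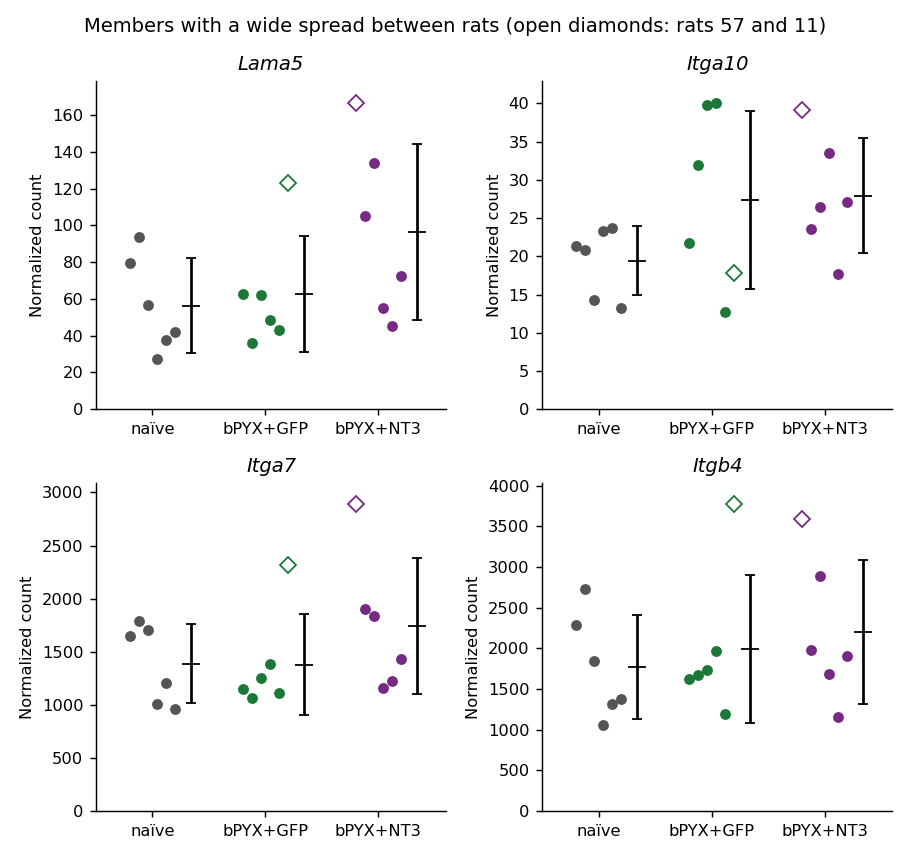
Normalized counts (y axis) of *Lama5*, *Itga10*, *Itga7* and *Itgb4* by group (x axis), with 1 point per rat, open diamonds for rats 57 and 11, and the mean ± SD of 6 rats at the side. In *Lama5*, *Itga7* and *Itgb4* the open diamonds are the highest points of their groups, at 123 and 167, 2320 and 2889, and 3773 and 3589.

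The integrins of white blood cells did not separate the groups. *Itgal* and *Itgam*, the α subunits of lymphocyte and myeloid adhesion receptors, and *Itgb2*, their β partner, were highest of all 18 rats in bPYX+NT3 rat 17, at 122, 144 and 229.9 normalized counts, and naïve rat 42 was second for *Itgal* and *Itgam*. The summed level of 10 macrophage markers was also highest in rat 17, at 3453, and second in rat 42, at 3028, and the part of those cells in the result was not tested. The log2 fold changes of *Itgal* were -0.18 (SE 0.36) in bPYX+GFP and 0.25 (SE 0.43) in bPYX+NT3 rats against naïve rats. *Itgae*, the α subunit of a receptor for E-cadherin on resident lymphocytes, had a narrow spread and intervals from -0.35 to 0.13 and from -0.19 to 0.24. The intervals were wide for *Itgb7*, from -1.09 to 0.89 and from -0.86 to 1.25, and for *Itga4*, a receptor subunit for vessel and matrix ligands, from -0.54 to 0.58 and from -1.02 to 0.30.

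Across rats, 2 animals of different groups stood at the same end of many members. Rat 57 of the bPYX+GFP group and rat 11 of the bPYX+NT3 group were both among the 3 highest of 18 rats for *Itga5*, *Itga7*, *Itgb4*, *Lama5*, *Lamb2* and *Lamc3*, and both among the 3 lowest for *Itga6*, *Itgb1* and *Lama1*. These 9 members compare with 5 for the next pair, rats 43 and 49, and a median of 0 over the 153 pairs of rats. Such a count was not made over all genes tested, so this is not shown to be particular to the members. The same 2 rats had the highest sums of 10 neuron markers, at 183600 and 183400, and the lowest shares of reads on no annotated gene, 30.8% in rat 11 and 31.7% in rat 57 beside a median of 33.5%, and the part of these in the result was not tested. Their sum of 7 fibroblast markers was 21480 in rat 11, the lowest of all rats, and 26860 in rat 57.

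**Figure D4:**
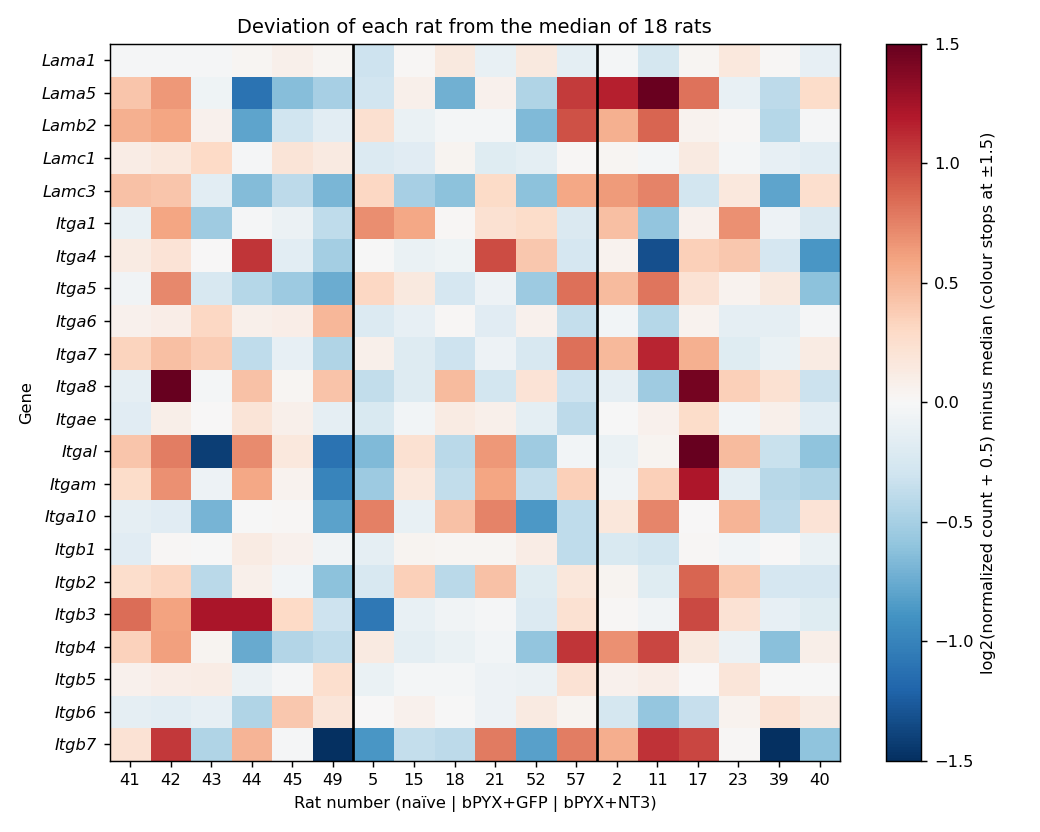
Log2(normalized count + 0.5) of 22 tested members (rows) in each rat (columns, grouped as naïve, bPYX+GFP and bPYX+NT3) minus the median of that gene over 18 rats, with colours stopped at ±1.5. Rats 57 and 11 share red cells at *Itga5*, *Itga7*, *Itgb4*, *Lama5*, *Lamb2* and *Lamc3*, and rats 42 and 17 stand out at *Itga8*.

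Rats 57 and 11 were also left out together, a choice made after seeing the data. Each comparison with naïve rats holds only 1 of them, so it is the fit without rat 57 or rat 11 alone and no further check. In it *Itga6* and *Lamc1* were called in both injured groups and *Itgb3* in bPYX+GFP rats. The number of members called against naïve rats was then 5 in bPYX+GFP rats, with *Itga1* and *Itgb5* added, beside 5.13% of all genes, and 2 in bPYX+NT3 rats, beside 3.16%. Between the injured groups it was 2 of 23, *Itga7* and *Lama5*, while 12.6% of all genes were called in that fit. In bPYX+GFP against naïve rats, leaving out naïve rat 42 also gave 5, with *Itga1* and *Itga5* added, beside 3.44% of all genes. In bPYX+NT3 against naïve rats, the 2 members called without rat 11 were *Itga6* and *Lamc1*, and the same 2 remained without rat 43 (5.46% of all genes). Between the injured groups, leaving out rat 57 gave 3 called members of 23, *Itga7* at 0.56, *Lama5* at 0.94 and *Itgb5* at 0.12, but 20.4% of all genes were called in the same fit. Leaving out rat 39 gave *Lama5* alone, beside 2.65% of all genes. The intervals with all rats between the injured groups were narrow for *Itgb1*, from -0.23 to 0.12, and *Lamc1*, from -0.07 to 0.21, and wide for *Lama5*, from -0.15 to 1.38, and *Itga8*, from -0.27 to 1.02.

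Partner genes of the basement membrane, its receptors outside the integrin family and linked proteins (*Utrn* and *Prx*) gave 11 tested genes. Of these, 4 were called in bPYX+GFP rats, all lower than in naïve rats, beside 2.59% of all genes called as lower. *Nid2*, a nidogen that ties laminin to collagen IV, had 1280, 1295 and 1339 normalized counts in naïve rats, 1041, 1142 and 1275 in bPYX+GFP rats and 1114, 1223 and 1400 in bPYX+NT3 rats. All bPYX+GFP rats lay below all naïve rats, while the bPYX+NT3 range spanned the naïve one, and 0.245% of all genes had ranges that did not overlap between bPYX+GFP and naïve rats. Its log2 fold change with GFP was -0.18 (SE 0.058, unadjusted p = 0.00781, edgeR adjusted p = 0.982, exact permutation p = 0.00216). *Dag1*, dystroglycan, a laminin receptor outside the integrin family, had 6938, 7682 and 8652 in naïve rats, 6218, 6741 and 7793 in bPYX+GFP rats and 6559, 7310 and 7855 in bPYX+NT3 rats. The ranges overlapped, and its log2 fold change with GFP was -0.18 (SE 0.067, unadjusted p = 0.0160).

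*Col4a1*, a chain of the collagen network beneath laminin, had 1162, 1625 and 1802 normalized counts in naïve rats, 1021, 1241 and 1597 in bPYX+GFP rats and 1103, 1439 and 1823 in bPYX+NT3 rats. These ranges overlapped, with a log2 fold change of -0.30 in bPYX+GFP rats (SE 0.12, unadjusted p = 0.0235) that was not called without rat 15, 21 or 43. *Sgce*, ε-sarcoglycan of the dystroglycan complex, was called as lower in both injured groups, at -0.14 (SE 0.062, unadjusted p = 0.0371) and -0.16 (SE 0.059, unadjusted p = 0.0145). The second call held in all 12 fits without 1 rat and the first in 5. In bPYX+NT3 rats *Sgce* was the only 1 of the 11 called, beside 6.05% of all genes. The estimates there were -0.077 (SE 0.063) for *Nid2*, -0.11 (SE 0.067) for *Dag1* and -0.10 (SE 0.14) for *Col4a1*.

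**Figure D5:**
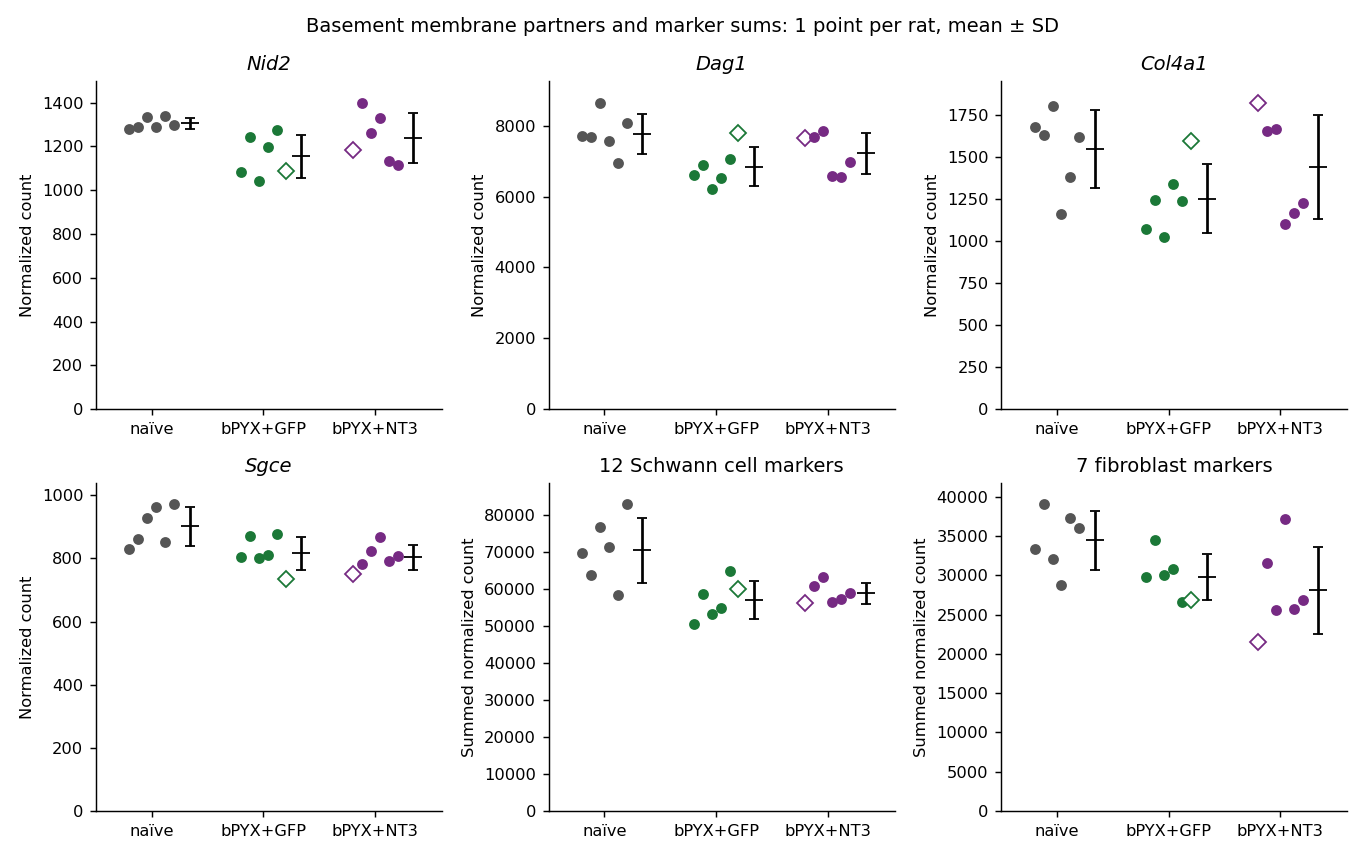
Normalized counts of *Nid2*, *Dag1*, *Col4a1* and *Sgce*, and summed normalized counts of the Schwann cell and fibroblast markers (y axes), by group (x axis), with 1 point per rat, open diamonds for rats 57 and 11, and the mean ± SD of 6 rats at the side. *Nid2* in bPYX+GFP rats lies below all naïve points, and the Schwann cell sum has a median of 70600 in the naïve group, 56810 in the bPYX+GFP group and 58080 in the bPYX+NT3 group.

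Inside the cell, 28 genes of the adhesion complex that couples integrins to actin were tested. In bPYX+GFP rats 1 of the 28 was called, beside 3.32% of all genes. This was *Tns3*, a tensin that binds integrin tails, at -0.15 (SE 0.065, unadjusted p = 0.0342), and it held in 6 of 12 fits without 1 rat. In bPYX+NT3 rats 3 were called, beside 6.05% of all genes. *Ptk2*, the focal adhesion kinase, was lower at -0.14 (SE 0.057, unadjusted p = 0.0240), and its relative *Ptk2b* was higher at 0.23 (SE 0.097, unadjusted p = 0.0319). *Bcar1*, a scaffold phosphorylated at adhesions, was higher at 0.58 (SE 0.27, unadjusted p = 0.0468). When 1 rat was left out, *Ptk2* was not called without rat 39, 43 or 45, *Ptk2b* without rat 11, 17, 43, 44 or 49, and *Bcar1* without rat 2, 11, 43, 44, 45 or 49, with *Bcar1* at 0.31 without rat 11. Between the injured groups 0 of the 39 partner genes were called with all rats, beside 1.81% of all genes. Without rat 52 1 was called, *Kank2*, beside 1.59%. There were 11 without rat 57, where 20.4% of all genes were called, and 8 without rats 57 and 11, where 12.6% were.

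The number of partner genes called also moved when single rats of any group were left out. It was 5 of 39 in bPYX+GFP against naïve rats, beside 3.32% of all genes. Without rat 43 it was 2, beside 2.55%, and without rat 15, 21 or 49 it was 3, beside 2.73%, 2.87% and 3.16%. In bPYX+NT3 against naïve rats it was 4 of 39, beside 6.05% of all genes. It was 8 without rat 23 (11.9% of all genes), 7 without rat 42 (8.92%) and 1 without rat 43 (5.46%). Without rat 11, 44, 45 or 49 it was 2, beside 3.16%, 3.42%, 3.48% and 3.41%. *Dag1* and *Nid2* were called in all 12 fits of the first comparison.

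Markers of Schwann cells and fibroblasts, which both make laminin, were lower in the same comparisons. Of 12 Schwann cell markers 5 were called as lower in bPYX+GFP than in naïve rats (*Pmp22*, *Mal*, *Pmp2*, *Egr2* and *Cnp*), beside 2.59% of all genes. With NT3 4 were called as lower (among them *Pmp22*, *Mal* and *Pmp2*), beside 2.94% of all genes, and none was called as higher in either group. Estimates were above 0 for 0 of the 12 in bPYX+GFP rats and for 3 in bPYX+NT3 rats. The summed level of the 12 was 58280 to 82900 in the naïve group and 50400 to 64940 in the bPYX+GFP group. In the bPYX+NT3 group it was 56260 to 63170. None of the 12 was at 0, and *Prx* was on this list and among the partner genes. Of 7 fibroblast markers 3 were called as lower in each injured group, beside the same 2.59% and 2.94% of all genes. In each group 1 of the 7 had an estimate above 0. *Col1a1* and *Col3a1* were called in both, with *Lum* in bPYX+GFP and *Dcn* in bPYX+NT3 rats. The sum of the 7 ran from 28800 to 39060 in the naïve group and 26640 to 34510 in the bPYX+GFP group. In the bPYX+NT3 group it ran from 21480 to 37180. The part of these cells in the lower *Lamc1*, *Itga6*, *Nid2* and *Col4a1* was not tested.

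Other cell types had fewer calls against naïve rats than Schwann cells and fibroblasts, but their estimates were not all smaller. With GFP the median log2 fold change against naïve rats was -0.157 for mural markers, beside -0.116 for fibroblast markers. With NT3 these medians were 0.231 and -0.258. Estimates above 0 numbered 2 of 8 for mural, 0 of 10 for macrophage and 9 of 9 for neuron markers with GFP. With NT3 they numbered 7 in each of these lists. Of 10 endothelial markers 1 was called as higher in bPYX+GFP rats (*Tie1*), beside 0.728% of all genes. In bPYX+NT3 rats 2 were (*Flt1* and *Vwf*), beside 3.1%. The sum of the 10 was 2904 to 3820 in naïve, 3143 to 3584 in bPYX+GFP and 2885 to 4222 in bPYX+NT3 rats. Of 8 mural cell markers 0 were called against naïve rats, and their sum was highest in naïve rat 42, at 3471, and bPYX+NT3 rat 17, at 3364, which also had the highest *Itga8*, at 494 and 419.5 normalized counts, and the part of those cells in that result was not tested. Satellite glia markers (6 tested) and macrophage markers (10 tested) had 0 calls against naïve rats. Of 9 tested neuron markers 1, *Avil*, was called as higher in bPYX+NT3 rats, beside 3.1% of all genes. Epithelial (3 tested) and skeletal muscle markers (2 tested) had 0 calls in all 3 comparisons. Between the injured groups the mural markers *Acta2* and *Cnn1* and the satellite glia marker *Kcnj10* were called as higher with NT3. Of all genes 1.13% were called as higher there.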

How the data were processed

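Poly(A) RNA of 18 rats was analysed. Per the labels and the study's methods, the authors made 1 library per rat, aligned reads to Rnor_6.0 with TopHat2, removed duplicates with Picard and used HTSeq to count reads on RefSeq identifiers. They deposited these counts raw, with no normalization. Reads on several places in the genome were not counted, so genes that share sequence are uncertain. Reads on no feature (30.8 to 34.6% of a rat's counted reads) stayed out of library sizes and tests. Rats were grouped by the sample number in the heading of the count table, which GEO's descriptions repeat. For 17 of the 18 rats the separately deposited file, whose counts were identical to the table column, stands under a title of another group, and the groups of those titles were fitted once as a variation.

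Symbols came from the RefSeq gene table (GRCr8) for 14193 of 15075 identifiers, and the 882 others could not become members. *Itga2*, *Itga3*, *Itga9*, *Itga11*, *Itgav*, *Lama2*, *Lama3*, *Lama4*, *Lamb1*, *Nid1* and *Hspg2* were not analysed here. Each pair of groups was fitted in edgeR 4.0.16 (R 4.3.3) with TMM scaling, glmQLFit and glmQLFTest over the genes that had over 10 reads in 6 or more of the 18 rats, with Benjamini-Hochberg adjustment over all of them and an unadjusted p under 0.05 as the call. Two-sided exact permutation tests used log2 CPM with a prior count of 2. The members, partner lists and marker lists were chosen with earlier results of these data known. Every member is accounted for, with values per group given for called members, the 5 with the highest mean counts and those whose ranges did not overlap. The values of 1 tested member and 1 marker are not reported here. Each result was computed again with DESeq2 1.42.0 or the likelihood ratio test of edgeR, with library size alone or the size factors of DESeq2, under 3 other filters, in 1 fit of all groups, with robust dispersions, with a covariate for the no-feature share, and without each rat in turn. A replicate block and leaving out rats 11 and 57 were added after seeing the data. Summaries and figures were made in Python 3.11.15 (matplotlib 3.10.9, numpy 2.4.6, pandas 2.3.3, scipy 1.17.1).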

Additional observations from a re-analysis of the deposited data

Results flagged for a closer look

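The 6 values of each tested member in each group made 69 sets. In 12 sets 1 rat's gap to the nearest other rat, as a share of the range, exceeded Dixon's 95% critical value. Chance gives that in about 1 in 20 sets of independent, normally distributed values. These were untransformed normalized counts and the sets share rats, so 12 of 69 is no test against that rate. Naïve rat 42 stood above its group for *Itga1* (306 normalized counts), *Itga5* (89.3) and *Itga8* (494), and naïve rat 44 for *Itga4* (321.5). In the bPYX+GFP group it was rat 57 each time, for *Itga7* (2320), *Itgb4* (3773), *Itgb5* (1016) and *Lama5* (123). In the bPYX+NT3 group it was rat 17 each time, for *Itga8* (419.5), *Itgal* (122), *Itgam* (144) and *Itgb3* (47.2).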

How the results depend on the processing

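With adjusted p-values 0 members were called in all alternatives and all fits without 1 rat, while over all genes of bPYX+GFP against naïve rats the likelihood ratio test called 11 genes, DESeq2 16 and the no-feature covariate 16. With all rats, *Itga6* and *Lamc1* were called in both comparisons with naïve rats, and *Itgb3* in bPYX+GFP rats, under each other test, scaling, filter and covariate run, except *Lamc1* in bPYX+NT3 rats with library size alone (-0.15). When 1 rat was left out, the members called ranged from 3 to 5 in bPYX+GFP and 2 to 5 in bPYX+NT3 against naïve rats. Between the injured groups they ranged from 0 to 3. The partner genes called ranged from 2 to 7, 1 to 8 and 0 to 11 in these comparisons. The share of all genes called ran from 2.39% to 5.13%, 3.16% to 11.9% and 0.998% to 20.4%. In bPYX+NT3 against naïve rats *Itga10* and *Lama5* were each called, in the same direction, under 9 alternatives. Each kept its direction without a call in 3, among them the fit without rats 11 and 57, and turned in 1, the grouping by file titles. In that comparison 2 members were called with library size alone (5.65% of all genes) or the no-feature covariate (4.15%). With library size alone 2 partner genes were called there. In bPYX+GFP against naïve rats 14 partner genes were called with the covariate, beside 7.38% of all genes. Without rats 11 and 57 the members called were 5, 2 and 2, beside 5.13%, 3.16% and 12.6% of all genes. The partner genes called in bPYX+NT3 rats were 2 against naïve and 8 against bPYX+GFP rats. Against naïve rats these counts are those without rat 57 or rat 11 alone. The causes were not tested.

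Grouping by the titles of the separate files gave 0, 1 and 1 called members, beside 1.46%, 2.82% and 2.25% of all genes. Against naïve rats this grouping gave 0 and 1 partner genes. It turned the direction of *Itga6* (0.063 in GFP, 0.25 in NT3), *Itgb3* (0.20), *Lamc1* in NT3 (0.12, and -0.011 in GFP, not called), *Itga10* (-0.79) and *Lama5* (-0.75). The replicate numbers were not taken to pair the rats, since rats are separate animals and the rat numbers of the table heading differ between groups. The deviations of same-numbered rats did not correlate positively in every pair, and such correlations cannot decide whether rats were paired. Between bPYX+NT3 and naïve rats 5 of 6 pairs had correlations from 0.286 to 0.534 and the other -0.303, and over the 3 comparisons they ran from -0.402 to 0.534. With the number as a replicate block, 8 members and 15 partner genes were called in bPYX+NT3 against naïve rats, beside 25.1% of all genes.

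Precision was limited by 6 rats a group and, for *Itgb3*, *Itga10* and *Itgb7*, by few reads.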
